A study of Mus musculus with 66 samples.

Results

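The genes described here are 10 targets of the transcription factor p53, namely Cdkn1a, Ccng1, Mdm2, Aen, Eda2r, Trp53inp1, Zmat3, Phlda3, Bbc3 and Bax. They were chosen by symbol, and all 10 were found among the 24410 genes of the deposited table and passed the filter on low values. The study differentiated mouse embryonic stem cells into ventral spinal cord progenitors and sequenced their polyadenylated RNA, in 37 WT and 29 MUT libraries of 26 groups. All cultures first received bFGF at 10 ng/ml, which was replaced on day 2 by CHIR99021 at 5 µM, an inhibitor of GSK3. Retinoic acid at 100 nM and the Smoothened agonist SAG at 10 nM followed on day 3, and SAG alone was kept from day 5. On D5, D7, D9 and D11 glyoxal-fixed, stained cells were sorted into the progenitor domains p1, p2 and pM, with 10000 to 15000 cells in each sorted population. The labels used here name neither the mutated gene in MUT nor the number of clones behind either genotype.

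WT libraries at D5 and D7, and all MUT libraries, came from the gate labelled NFIAn. The gates are named for NFIA, known as a driver of the switch from neurogenesis to gliogenesis, and the labels do not spell out their last letter. WT was sorted into NFIAn in all domains at D9, into NFIAp in p2 and pM at D9, and into NFIAp alone at D11. Genotype therefore goes with the gate at D11, and so does day in the comparison of WT D11 with WT D5. In these pairs the factors cannot be told apart. Markers of the sorted tissue were present: a list of 11 spinal progenitor markers summed to 20500 to 72500 normalised counts per library, with no gene of it at 0 in any group of libraries.

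p53 is held at low levels in unstressed cells by Mdm2, an E3 ubiquitin ligase that is itself a p53 target, and is stabilised by DNA damage and other stress. Once active it binds pairs of decamers in DNA and raises genes that arrest the cell cycle, repair DNA or start apoptosis. In neural progenitors these genes are known for setting the balance between division and loss of cells after replication stress or damage.

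Promoter windows were read from RefSeq on GRCm38.p6 for the 8 members that had an entry (not for Trp53inp1 or Zmat3), each from 250 bases before to 50 bases after a start. The p53 decamer, whose pattern reads the same on both strands, was found in 5 of the 8, namely Cdkn1a, Ccng1, Mdm2, Aen and Bax, against 9.55% of the 27025 genes with a window. Adjacent decamers with at most 1 mismatch over their 20 bases were found for Cdkn1a and Ccng1, against 0.107% of genes. The stretches below show these matches in Cdkn1a and Ccng1, and their part in the differences between days was not tested. Mdm2 and Bax are shown beside them as single matches. Capitals mark exact matches to the decamer, and the 4 stretches lie at chr17:29090903-29090962 (+ strand), chr11:40755437-40755496 (- strand), chr10:117710910-117710969 (- strand) and chr7:45467065-45467124 (- strand), all upstream of the start.

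Cdkn1a: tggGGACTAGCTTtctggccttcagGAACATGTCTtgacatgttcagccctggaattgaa
Ccng1: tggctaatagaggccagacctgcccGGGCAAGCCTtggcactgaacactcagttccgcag
Mdm2: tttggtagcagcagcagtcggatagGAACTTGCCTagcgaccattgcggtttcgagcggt
Bax: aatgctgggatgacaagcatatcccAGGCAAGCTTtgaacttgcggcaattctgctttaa

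In Cdkn1a the pair reads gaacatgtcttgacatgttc and begins 51 bases before the upstream start of that gene. The window of its downstream start (chr17:29093519-29093818) holds no match. In Ccng1 the pair reads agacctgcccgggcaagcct and begins 195 bases before the start. The decamers of Mdm2 and Bax begin 186 and 201 bases before theirs. The decamer of Aen lies 10 bases past the upstream start of that gene and is not printed. No match was found in the windows of Eda2r, Phlda3 and Bbc3, which says only that these letters are not in them. A match is a description of sequence, and binding was not measured here.

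The values are read counts that the authors divided by a size factor per library (normalised counts). The depth, as reads recovered from these values, ran from 20.29 to 30.83 M, apart from the second replicate of MUT p2 at D5 with 8.738 M. Summed normalised counts set 18 libraries apart, namely replicate 3 of D7 and replicates 2 and 3 of D9, at 26.59 to 40.23 M. The remaining 48 lay at 17.85 to 25.5 M. A median of 11.88% of counts fell on ribosomal protein genes in the 18, and 8.083% in the 48. Results over D7 and D9 are given again without them where a call or a value changes. The labels do not state that the libraries of a group are separate cultures. All p-values below cover the spread between libraries alone, which may be technical. Unless a correlation is named, they treat libraries of the same genotype, day and number as independent.

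Levels differed widely among the members. Per kilobase of merged exons, the median normalised count over the 66 libraries was 5870 for Bax, 2080 for Phlda3, 1910 for Cdkn1a and 1870 for Ccng1. It was 675 for Aen, 399 for Bbc3, 243 for Eda2r, 178 for Mdm2, 142 for Trp53inp1 and 58.1 for Zmat3. By this scale the pore-forming effector Bax was the most abundant of the 10, and the RNA-binding protein Zmat3 the least. All 10 are protein coding in GENCODE M21 on GRCm38. Cdkn1a lies on chromosome 17 (29090976 to 29100727, + strand), where its exons overlap a gene on the opposite strand, Ccng1 on chromosome 11 (40748552 to 40755311, - strand), and Bax on chromosome 7 (45461697 to 45466898, - strand), where its exons overlap a gene model on the same strand. Reads of the overlapping models may affect the values of Cdkn1a and Bax, which was not tested.

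**Figure D1:**
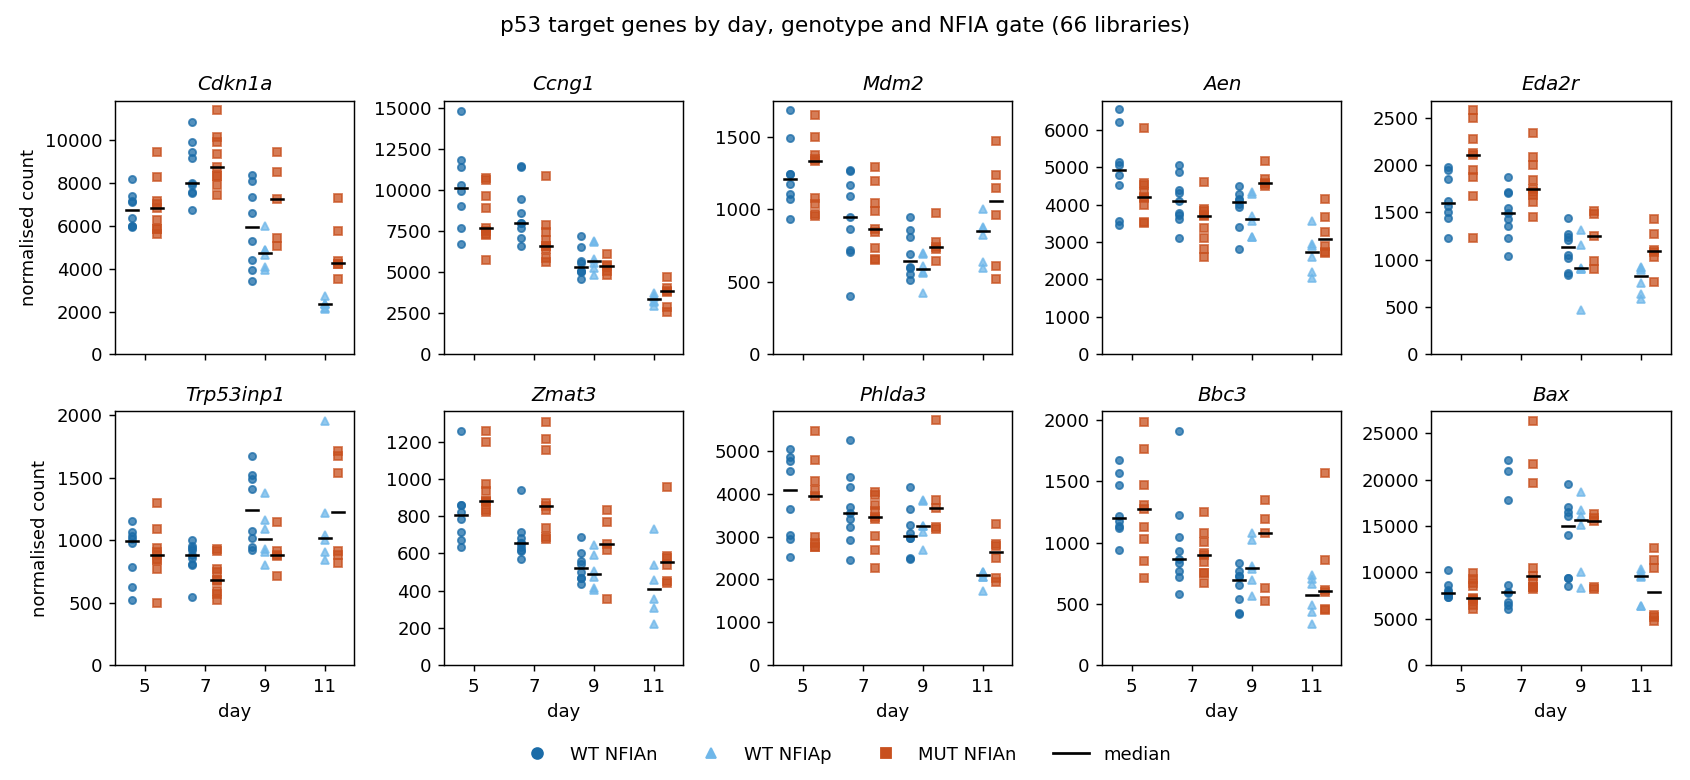
Normalised count (y axis, linear, from 0) of each p53 target gene against day (x axis), with a point per library for WT NFIAn, WT NFIAp and MUT NFIAn, and black bars for medians. The Cdkn1a median is highest at D7 and lowest in WT at D11 (2119 to 2727), the Ccng1 median in WT goes from 10130 at D5 to 3375 at D11, and Bax splits into separate clouds at D7 and D9.

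From D5 to D11 most of the 10 targets declined in WT. In that comparison 8 of 10 were lower past an adjusted p of 0.05 (limma) and 0 were higher, against 48% of all genes called and 22.8% called lower. The median log2 difference of the members was -0.91, and that of all genes tested 0.04. In MUT, which was NFIAn on both days, 7 of 10 were lower and Trp53inp1 was higher, against 46% called and 22% called lower, with a median of -0.53 for the members and 0.02 for all genes. When libraries that share genotype, day and number were given an estimated correlation, 6 of 10 were lower in MUT and 0 higher, since Aen (adjusted p = 0.052) and Trp53inp1 (adjusted p = 0.14) no longer passed.

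Of the 10 members, those of the cell cycle arm had the largest differences in WT. Cdkn1a encodes p21, an inhibitor of cyclin-dependent kinases that holds cells in G1. In WT it stood at 5968, 6741 and 8207 normalised counts (lowest, median and highest of 8 libraries) at D5 and at 2119, 2352 and 2727 (6 libraries) at D11, so that the days did not overlap. This is a log2 difference of -1.52 ± 0.12 (SE, 6 against 8 libraries, adjusted p = 5.9e-15), or 2.87-fold. In MUT it stood at 5618, 6830 and 9454 at D5 (9 libraries) and at 3529, 4283 and 7303 at D11 (6 libraries), and it fell by 0.52 ± 0.12 on the log2 scale (adjusted p = 0.00019), with overlapping days because of the pM libraries.

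Ccng1 encodes cyclin G1, an atypical cyclin that recruits a phosphatase to Mdm2. Its WT libraries ran from 6700 over a median of 10130 to 14840 at D5 and from 2976 over 3375 to 3737 at D11, again without overlap. The log2 difference was -1.51 ± 0.13 (adjusted p = 4.4e-14). In MUT the range went from 5759 to 10710 at D5 to 2578 to 4698 at D11, and the difference was -1.20 ± 0.12 (adjusted p = 1.9e-11). The lowest D5 library of each genotype was above the highest D11 library of that genotype.

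Among the members that feed back on growth signals and on p53, Phlda3, a PH domain protein that represses Akt, went from 2513, 4089 and 5044 at D5 to 1730, 2103 and 2168 at D11 in WT. Its groups did not overlap, and the log2 difference was -0.84 ± 0.14 (adjusted p = 1.7e-06). MUT Phlda3 differed by -0.54 ± 0.13 (adjusted p = 0.00085), from 2747 to 5471 at D5 to 1939 to 3299 at D11, with overlap. Mdm2 was lower in WT at D11 by a smaller step, with 937, 1208 and 1687 at D5 against 593.2, 848.4 and 999.8 at D11, with overlap (-0.62 ± 0.22, adjusted p = 0.015). That call was lost without D11 p2 replicate 2 (-0.51, adjusted p = 0.072) or without D11 pM replicate 2 (-0.54, adjusted p = 0.059). In MUT, Mdm2 differed by -0.40 ± 0.21 (adjusted p = 0.11) and did not pass.

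Apoptotic targets split. Bbc3 encodes PUMA, a BH3-only protein that frees Bax and Bak from their inhibitors. It went from 935, 1199 and 1674 at D5 to 334.4, 575.8 and 738.5 at D11 in WT, with no overlap (-1.24 ± 0.21, adjusted p = 2.1e-06). In MUT it differed by -0.83 ± 0.20 (adjusted p = 0.00054), with 1 D11 library of p2 at 1567 inside the D5 range and the other D11 libraries at 450.5 to 861.5.

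Bax, the effector that opens the outer mitochondrial membrane, ran from 7389 to 10290 at D5 and from 6413 to 10400 at D11 in WT, and its log2 difference was 0.09 ± 0.31 (adjusted p = 0.83). In MUT the difference was -0.02 ± 0.30 (adjusted p = 0.96), but the D11 libraries lay apart by replicate number, at 10480 to 12630 in replicate 2 and 4770 to 5362 in replicate 3. No change of Bax was detectable with this spread.

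Aen, an apoptosis-enhancing nuclease of the nucleolus and nucleus, went from 3451, 4929 and 6550 at D5 to 2034, 2745 and 3569 at D11 in WT (-0.82 ± 0.14, adjusted p = 2.8e-06). The highest D11 library overlapped the lowest D5 library. Its MUT difference was -0.42 ± 0.14 (adjusted p = 0.0098), which missed the threshold without MUT D11 pM replicate 3 (-0.31, adjusted p = 0.073). Eda2r, an X-linked receptor of the TNF receptor family that binds ectodysplasin A2, went from 1227, 1594 and 1976 to 583.3, 823.8 and 924.9 in WT, without overlap (-1.04 ± 0.14, adjusted p = 3.2e-08). MUT Eda2r differed by -0.86 ± 0.14 (adjusted p = 1e-06), from a median of 2105 to 1092, with overlapping days.

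Zmat3, an RNA-binding zinc finger protein that regulates splicing, went from 632.1, 805.2 and 1257 at D5 to 219, 407.8 and 730.2 at D11 in WT (-0.99 ± 0.19, adjusted p = 2.4e-05). Its D11 spread was wide, since the p1 libraries stood at 730.2 and 219, the first of them inside the D5 range. In MUT it went from 820.9, 883.7 and 1256 to 443.3, 554.8 and 954.4, with 1 D11 library of pM inside the D5 range, and differed by -0.74 ± 0.18 (adjusted p = 0.00086). Trp53inp1, a stress-induced protein of autophagy and of p53 phosphorylation, lay above 0 in both genotypes. It differed by 0.39 ± 0.19 in WT (adjusted p = 0.085) and by 0.45 ± 0.18 in MUT (adjusted p = 0.037), where libraries of 496.2 to 1297 at D5 and 817.7 to 1710 at D11 overlapped. The MUT call was kept in 7 of 15 repeats that each left out 1 library, at 0.28 (adjusted p = 0.25) without MUT D11 pM replicate 3. It was also lost with TMM scaling, with edgeR and with the compared groups alone (adjusted p up to 0.14 over these and the correlation).

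**Figure D2:**
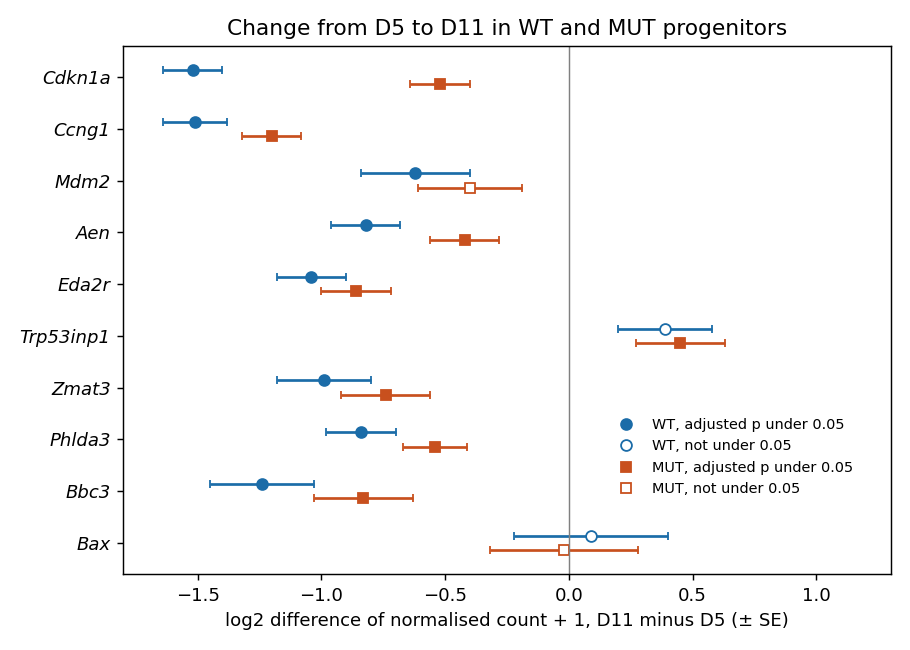
Log2 difference of D11 minus D5 (x axis, ± SE of the limma fit) for each member (y axis), circles for WT and squares for MUT, filled where the adjusted p is under 0.05. All members but Trp53inp1 and Bax lie left of 0 in both genotypes, and Cdkn1a shows the widest gap between genotypes, at -1.52 in WT and -0.52 in MUT.

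The decline was present in each WT domain. Called lower were 7 of 10 members in p1 (13.7% of all genes called lower there), 7 of 10 in p2 (11.5%) and 3 of 10 in pM (9.69%), where D5 holds 2 libraries. Cdkn1a, Ccng1 and Bbc3 passed in all 3 domains. The difference in Cdkn1a was -1.56 ± 0.20 for p1, -1.46 ± 0.20 for p2 and -1.55 ± 0.22 for pM (adjusted p of 4.3e-07 at most). Ccng1 differed by -1.84 ± 0.21, -1.72 ± 0.21 and -0.98 ± 0.23 in the same order, and whether the domains differ was not tested. The MUT difference in Cdkn1a was -0.68 ± 0.20 for p1, -0.57 ± 0.20 for p2 and -0.32 ± 0.20 for pM, of which the last did not pass (adjusted p = 0.27).

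Markers of the cell cycle and of other cell types moved over the same days. All 16 S phase genes of a list and 16 of 16 G2 and M phase genes were lower in WT at D11 (median log2 differences -1.88 and -1.26), and all 12 postmitotic neuron markers were higher (median 2.73). The summed level of the neuron markers went from 2180 to 13700 at D5 to 22700 to 43900 at D11. Mesenchyme markers were higher in 6 of 11 and lower in 1, and neural crest markers higher in 6 of 9 and lower in 1. Mesenchyme markers summed to 174 to 938 at D5 and 1370 to 7790 at D11 in WT, and neural crest markers to 164 to 382 and 512 to 3650. In MUT 16 of 16 S phase and 15 of 16 G2 and M phase genes were lower (medians -1.22 and -0.96), 12 of 12 neuron markers were higher (median 3.27), and 7 of 11 mesenchyme and 7 of 9 neural crest markers were higher, with 1 lower in each. The part of these shifts in the decline of the p53 targets was not tested, and fewer cells of a type and less RNA per cell cannot be told apart in bulk samples.

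Between D5 and D7 the course of Cdkn1a was the opposite of the later decline. In WT it went from a median of 6741 to 8018 (range 6741 to 10870 over 9 libraries at D7), which is 0.34 ± 0.11 on the log2 scale (adjusted p = 0.021). It was the only member of 10 called, against 19.6% of all genes. Without the D7 replicate 3 libraries the difference was 0.27 (adjusted p = 0.10). The call was also lost without WT D5 pM replicate 3 (0.29, adjusted p = 0.09), D7 p1 replicate 2 (0.29, 0.053), D7 p2 replicate 3 (0.31, 0.052) or D7 pM replicate 3 (0.30, 0.059). In MUT the step was 0.40 ± 0.10 (adjusted p = 0.0032), from a median of 6830 to 8777, and 0.49 without the high libraries (adjusted p = 0.0013). Over the same interval 12 of 12 neuron markers were higher in each genotype (medians 2.49 in WT and 2.39 in MUT), and 7 of 16 S phase genes in WT and 10 of 16 in MUT were lower. Their part in the Cdkn1a step was not tested.

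Bbc3 was the other MUT call between D5 and D7, where 30.8% of all genes were called. It went from a median of 1273 to 899.2 (-0.45 ± 0.18, adjusted p = 0.049), but was kept in 5 of 18 repeats that each left out 1 library (adjusted p up to 0.14). With the estimated correlation it did not pass (-0.45, adjusted p = 0.21). Without the libraries of high total it was at -0.40 (adjusted p = 0.16), and Ccng1 passed instead at -0.32 (adjusted p = 0.049). WT Bbc3 differed by the same amount (-0.45 ± 0.19, adjusted p = 0.084). The remaining members lay between -0.46 (Mdm2 in MUT) and 0.66 (Bax in MUT, adjusted p = 0.056) and did not pass. Bax in MUT was at 0.22 (adjusted p = 0.42) without the libraries of high total.

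From D7 to D9, within NFIAn cells of WT, 4 of 10 members were lower and 1 higher, against 14.4% of genes called and 8.09% called lower. Cdkn1a fell by 0.57 ± 0.11 (adjusted p = 0.00015), from a median of 8018 to 5945, and Ccng1 by 0.62 ± 0.11 (adjusted p = 0.00011), from 8012 to 5313. By domain the mean of Cdkn1a went from 8200 to 3930 in p1, from 8352 to 7683 in p2 and from 9198 to 6335 in pM. The days overlapped in p2 alone, at 7567 to 9470 against 6595 to 8361, and whether the domains differ was not tested. The calls of Cdkn1a and Ccng1 were kept without the libraries of high total, at -0.65 and -0.56. Eda2r (-0.39 ± 0.13), Bbc3 (-0.60 ± 0.19) and Trp53inp1 (0.53 ± 0.17) passed with adjusted p of 0.022 to 0.035. Without those libraries they were at -0.44 (adjusted p = 0.098), -0.40 (adjusted p = 0.36) and 0.75 (adjusted p = 0.05), no longer past the threshold. Leaving out 1 library at a time, Eda2r was kept in 11 of 17 repeats (adjusted p up to 0.12), Trp53inp1 in 12 of 17 (up to 0.099) and Bbc3 in 12 of 17 (up to 0.15). With the estimated correlation Eda2r (adjusted p = 0.23), Trp53inp1 (0.16) and Bbc3 (0.13) did not pass. Over this interval 10 of 16 S phase genes (median -0.56), 11 of 16 G2 and M phase genes (median -0.70) and 5 of 11 mesenchyme markers (median -1.77) were lower too, and their part in these results was not tested.

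In MUT over the same days 3 of 10 were called, all lower, against 9.71% of genes. Eda2r went from a median of 1749 to 1249 (-0.66 ± 0.15, adjusted p = 0.0026), Zmat3 from 856.1 to 650.9 (-0.67 ± 0.20, adjusted p = 0.026) and Ccng1 from 6605 to 5395 (-0.41 ± 0.13, adjusted p = 0.042). MUT D9 p2 holds 1 library, assumed to vary like the others, and without it Zmat3 was at -0.34 (adjusted p = 0.47) and Ccng1 at -0.39 (adjusted p = 0.14). Leaving out 1 library at a time, Zmat3 was kept in 8 of 14 repeats, Ccng1 in 4 of 14 and Eda2r in 14 of 14. With the estimated correlation Zmat3 (adjusted p = 0.14), Ccng1 (0.2) and Eda2r (0.055) did not pass. A fit without the libraries of high total drops that group and called none of the 3, with Eda2r at -0.56 (adjusted p = 0.20).

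From D9 to D11 within NFIAp cells of WT (p2 and pM), 3 of 10 were lower, against 10.1% called and 3.98% called lower. Cdkn1a went from 3959, 4748 and 5996 (6 libraries) at D9 to 2119 to 2727 in the 4 libraries of p2 and pM at D11, with no overlap (-0.98 ± 0.14, adjusted p = 3.2e-06), and -0.91 (adjusted p = 0.0024) without the libraries of high total. Ccng1 (-0.79 ± 0.15, adjusted p = 0.00023) and Phlda3 (-0.65 ± 0.16, adjusted p = 0.0062) also lay lower without overlap in both domains. Without the libraries of high total they were at -0.63 (adjusted p = 0.053) and -0.49 (adjusted p = 0.15). Beside them 8 of 16 S phase genes (median -0.68) and 13 of 16 G2 and M phase genes (median -1.15) were lower and 4 of 11 mesenchyme markers higher (median 2.32), whose part was not tested.

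In MUT the medians from D9 to D11 went from 7268 to 4283 for Cdkn1a (-0.56 ± 0.14, adjusted p = 0.0062) and from 5395 to 3847 for Ccng1 (-0.56 ± 0.14, adjusted p = 0.0092). They went from 4577 to 3080 for Aen (-0.54 ± 0.16, adjusted p = 0.024) and from 3673 to 2646 for Phlda3 (-0.70 ± 0.16, adjusted p = 0.0029). That is 4 of 10 lower, against 9.19% of genes called and 3.67% called lower. Without the libraries of high total, which leaves 2 MUT libraries at D9, none of the 4 passed, with differences of -0.42 to -0.58. Cdkn1a and Phlda3 each missed the threshold without MUT D9 p2 replicate 3, at -0.45 (adjusted p = 0.095) and -0.54 (adjusted p = 0.084). Aen missed it without MUT D9 p1 replicate 3 (-0.54, adjusted p = 0.06), MUT D9 pM replicate 3 (-0.52, adjusted p = 0.073) or MUT D11 pM replicate 3 (-0.44, adjusted p = 0.11). With the estimated correlation Phlda3 passed (adjusted p = 0.046), while Cdkn1a (0.078), Ccng1 (0.12) and Aen (0.15) did not. In MUT 9 of 16 S phase genes (median -0.61) and 5 of 16 G2 and M phase genes (median -0.49) were lower from D9 to D11 and 5 of 11 mesenchyme markers higher (median 1.96), whose part was not tested.

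**Figure D3:**
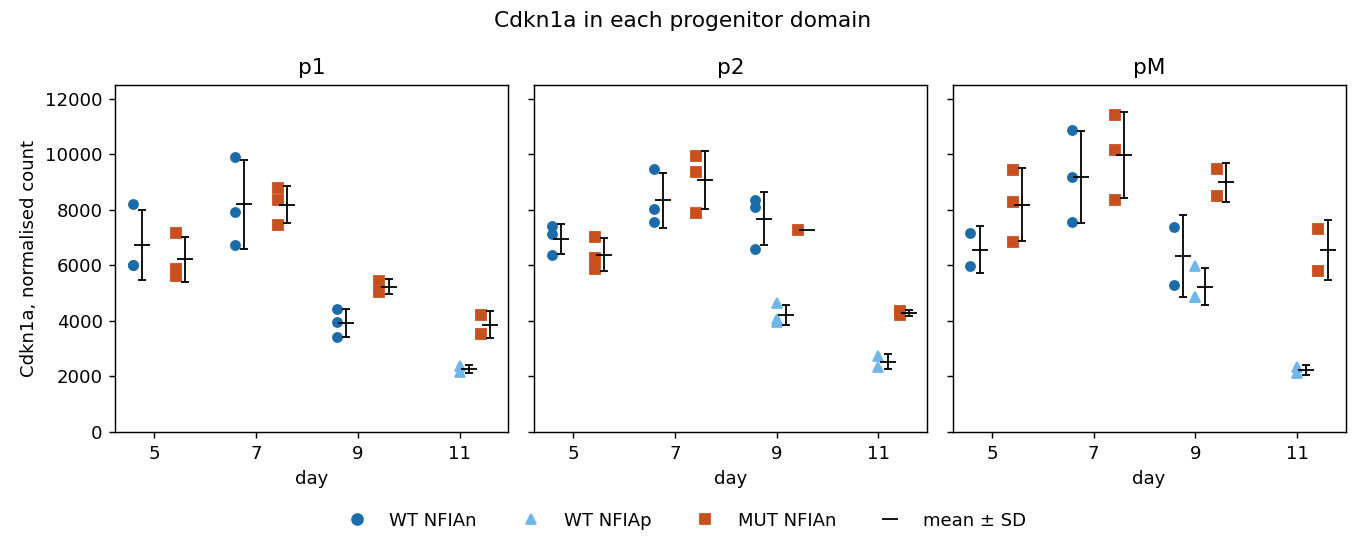
Cdkn1a normalised count (y axis, linear, from 0) against day (x axis) in p1, p2 and pM, with a point per library and the mean ± SD beside it (mean alone for the single MUT library of D9 p2). At D11 the MUT libraries of pM stand at 5783 and 7303, above the WT libraries of pM at 2119 and 2353.

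Sorting by NFIA at D9 allowed the gate to be compared within a day, in p2 and pM of WT. None of the 10 members passed in limma over both domains, against 0.204% of all genes, while 3 had an unadjusted p under 0.05 (Cdkn1a, Eda2r and Bbc3). edgeR called 0 and DESeq2 1. With the estimated correlation Cdkn1a (-0.57, adjusted p = 0.00093) and Eda2r (-0.47, adjusted p = 0.037) passed. In limma without it Cdkn1a came closest, at -0.56 ± 0.13 in NFIAp (adjusted p = 0.056), and at -0.41 (adjusted p = 0.97) without the libraries of high total, which leaves 1 library per domain and gate. In p2 its NFIAn libraries stood at 6595, 8092 and 8361 and its NFIAp libraries at 4079, 4639 and 3959, which did not overlap and differed by -0.86 ± 0.18 (adjusted p = 0.013). In pM the NFIAn libraries at 5295 and 7376 overlapped the NFIAp libraries at 4861, 5996 and 4857 (-0.26 ± 0.20, adjusted p = 1). Replicate 1, which is outside the libraries of high total, shows the same order in p2, at 6595 against 4079. The same sort had 2 of 16 genes of G2 and M phase higher in NFIAp (median 0.70), and 0 of 16 S phase genes were called (limma, median -0.34, 7 at an unadjusted p under 0.05). Mesenchyme markers had 1 of 11 called higher (median 2.26, 8 at an unadjusted p under 0.05) and neural crest markers 0 of 9 (median 1.03, 4 at an unadjusted p under 0.05). The part of these genes in the Cdkn1a difference was not tested.

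Between domains few genes were called at all. Over the 4 days in WT, 0 of 10 members passed in limma between p2 and p1, where 1.83% of genes did, with 1 at an unadjusted p under 0.05 (Cdkn1a, 0.31 ± 0.10, adjusted p = 0.088). edgeR called 0 there and DESeq2 1, and with the estimated correlation Cdkn1a passed (0.31, adjusted p = 0.0067). Between pM and p2, 0 of 10 passed in limma, edgeR and DESeq2, against 2.46% of genes, with Phlda3 the only member at an unadjusted p under 0.05 (-0.28 ± 0.12, adjusted p = 0.29). With 10 members, counts of 0 lie near these shares. Cdkn1a at D9 in NFIAn cells was the exception by day. Its p1 libraries at 3950, 3414 and 4426 lay below the p2 libraries at 6595, 8092 and 8361, a difference of 0.97 ± 0.18 (adjusted p = 0.0013), while at D5, D7 and D11 the same difference was 0.06 ± 0.18, 0.04 ± 0.18 and 0.16 ± 0.22. Whether D9 differs from the other days in this respect was not tested.

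Before D11 few genes were called between genotypes, and no member was among them. None of the 10 passed in limma at D5 (0.458% of genes called), at D7 (2.03%) or at D9 in NFIAn (0.7%), and edgeR and DESeq2 called 0 on each of these days. Counts of 0 of 10 lie near these shares. At an unadjusted p under 0.05 there were 1, 3 and 4 members. Cdkn1a differed between MUT and WT by 0.03 ± 0.11 at D5, 0.08 ± 0.10 at D7 and 0.29 ± 0.13 at D9 (adjusted p = 0.46). Eda2r differed by 0.32 ± 0.13, 0.31 ± 0.12 and 0.03 ± 0.16, and Bbc3 by -0.06 ± 0.19, -0.06 ± 0.18 and 0.64 ± 0.22 (adjusted p = 0.23). Without the libraries of high total, Cdkn1a was at 0.25 (adjusted p = 0.36) on D7. On D9, where that leaves p1 and pM, Cdkn1a was at 0.65 (adjusted p = 0.46), Eda2r at 0.18 (adjusted p = 1) and Bbc3 at 0.21 (adjusted p = 1).

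At D11 Cdkn1a separated the genotypes. The MUT libraries stood at 3529 and 4208 in p1, 4216 and 4350 in p2, and 7303 and 5783 in pM. The WT libraries stood at 2163 and 2369 in p1, 2351 and 2727 in p2, and 2119 and 2353 in pM. Every MUT library was above every WT library, and the log2 difference was 1.02 ± 0.13 (6 against 6 libraries, adjusted p = 1.9e-07), or 2.03-fold. It was 0.77 ± 0.22 in p1 (adjusted p = 0.12), 0.76 ± 0.22 in p2 (adjusted p = 0.18) and 1.54 ± 0.22 in pM (adjusted p = 8.5e-06). At D11 MUT is NFIAn and WT NFIAp, so genotype and gate cannot be told apart there. Within WT at D9 the NFIAn libraries of p2 lay above the NFIAp libraries, while those of pM overlapped. Over both domains the main limma fit did not call Cdkn1a for the gate, while limma with the estimated correlation did (-0.57, adjusted p = 0.00093). The part of the gate in the D11 difference was not tested.

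Eda2r was the other member called at D11, where 4.14% of genes were called. Its MUT libraries ran from 767.7 over a median of 1092 to 1432 and its WT libraries from 583.3 over 823.8 to 924.9, which overlapped, although within each domain both MUT libraries were above both WT libraries. The difference was 0.50 ± 0.15 (adjusted p = 0.043). The call was kept in 4 of 12 repeats that each left out 1 library (adjusted p up to 0.14). It was lost in limma with the compared groups alone (0.50, adjusted p = 0.14) and with the estimated correlation (0.50, adjusted p = 0.38). Zmat3 differed by the same amount without passing (0.50 ± 0.20, adjusted p = 0.16), and the other members lay between -0.17 (Bax) and 0.35 (Bbc3). In this comparison 7 of 16 S phase genes were higher in MUT (median 0.44), 0 of 16 G2 and M phase genes passed (median 0.37, 6 at an unadjusted p under 0.05) and 1 of 12 neuron markers was higher (median 0.21). Their part in the difference of Cdkn1a between genotypes was not tested.

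The change from D5 to D11 was then compared between genotypes. WT goes from NFIAn to NFIAp between these days and MUT stays NFIAn, so genotype and gate cannot be told apart here either. Cdkn1a fell less in MUT, by a difference of differences of 1.00 ± 0.17 (14 libraries of WT and 15 of MUT, adjusted p = 0.00038), and was the only member of 10 called, against 0.77% of genes. By domain the values were 0.88 ± 0.28 in p1, 0.88 ± 0.28 in p2 and 1.23 ± 0.30 in pM (adjusted p of 0.49, 0.73 and 0.08), so that the call rests on the domains together. Across the other settings it stayed between 0.99 and 1.02 (adjusted p up to 0.04), and it was kept without each of the 29 libraries in turn. Next came Aen (0.41 ± 0.19, adjusted p = 0.54) and Bbc3 (0.40 ± 0.29, adjusted p = 0.78).

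**Figure D4:**
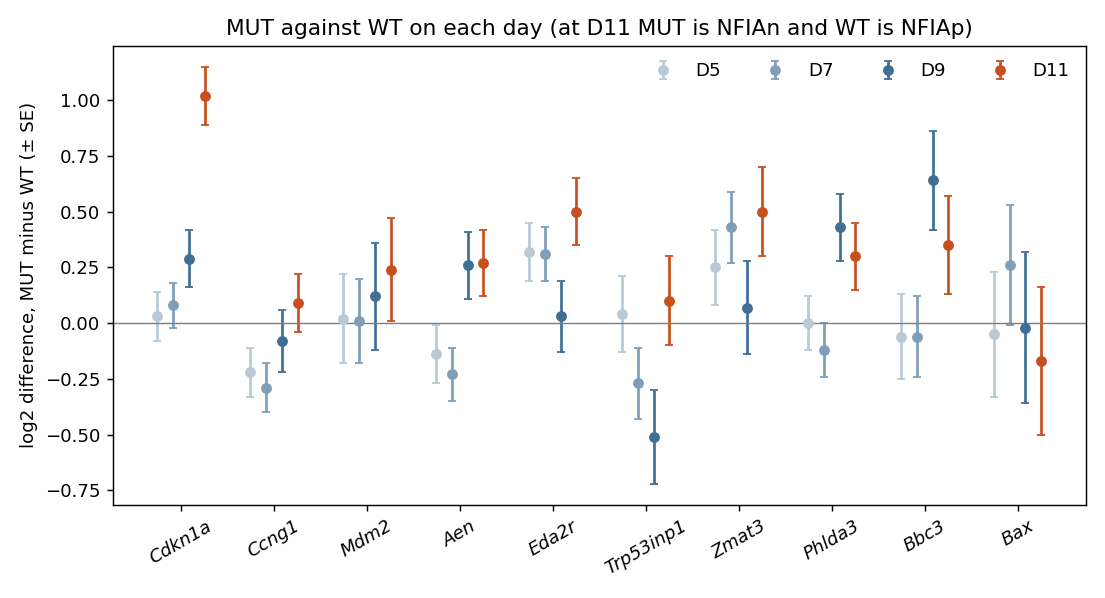
Log2 difference of MUT minus WT (y axis, ± SE of the limma fit) for each member (x axis) on D5, D7, D9 (NFIAn) and D11. Cdkn1a at D11 stands at 1.02, above the values of the other members on all days, which lie between -0.51 and 0.64.

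p53 itself and its partner Mdm4 were lower at D11 than at D5 in both genotypes. Trp53, the gene of p53, went from 2778, 3393 and 3840 at D5 to 1745, 1986 and 2505 at D11 in WT, without overlap (-0.73 ± 0.14, adjusted p = 1.5e-05), and differed by -0.56 ± 0.13 in MUT (adjusted p = 0.00047). Mdm4, which binds and restrains p53, differed by -0.46 ± 0.19 in WT (adjusted p = 0.036) and -0.77 ± 0.18 in MUT (adjusted p = 0.00043). Between D5 and D7 Trp53 was lower in MUT (-0.43 ± 0.12, adjusted p = 0.0052), and in WT it differed by -0.20 ± 0.12 (adjusted p = 0.25). Neither gene differed between genotypes or gates past the threshold: at D11 MUT minus WT was 0.11 ± 0.14 for Trp53 and -0.10 ± 0.20 for Mdm4. These are RNA levels, and p53 is known to be set largely at the protein level, which was not measured here.

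Of 22 regulators listed, Trp53 and Mdm4 included, 20 could be tested. From D5 to D11, 9 were lower and 1 higher in WT, and 11 lower and 1 higher in MUT. In total 10 and 12 of 20 were called, where 48% and 46% of all genes were called and 22.8% and 22% called lower. The medians were -0.52 in WT and -0.81 in MUT. The checkpoint kinases led: Chek1 differed by -2.03 ± 0.14 in WT and -1.70 ± 0.14 in MUT, and Chek2 by -1.75 ± 0.20 and -1.63 ± 0.20. Usp7, which removes ubiquitin from Mdm2 and p53, differed by -1.13 ± 0.16 and -1.30 ± 0.15. By interval, Usp7 (-0.78 ± 0.14), Chek1 (-0.51 ± 0.13) and the ligase gene Rchy1 (0.46 ± 0.14) led WT D5 to D7, and Chek1 (-0.58 ± 0.13), Chek2 (-0.81 ± 0.18) and the damage kinase Atr (-0.71 ± 0.18) led WT D7 to D9. From D9 to D11 the 2 calls in WT were Chek1 (-0.95 ± 0.17) and Chek2 (-0.75 ± 0.24), and the call in MUT was Chek1 (-0.52 ± 0.17). MUT was led by Rchy1 (0.56 ± 0.14), Atr (-0.65 ± 0.18) and Usp7 (-0.50 ± 0.14) from D5 to D7 and by Chek1 (-0.76 ± 0.15), Usp7 (-0.63 ± 0.17) and Chek2 (-0.79 ± 0.22) from D7 to D9. Usp7 was higher in MUT at D7 (0.50 ± 0.14, adjusted p = 0.043), and limma made no other call in the list between genotypes on any day, between gates or between domains (0 to 2 of 20 at an unadjusted p under 0.05 in each of the comparisons without a call).

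A further 30 p53 targets split by direction. From D5 to D11, 11 were lower and 6 higher in WT (median -0.38), and 11 lower and 5 higher in MUT (median -0.33). Psrc1, a microtubule protein of the mitotic spindle, differed by -1.85 ± 0.12 in WT and -1.26 ± 0.11 in MUT. Btg2, an antiproliferative gene of neurogenic progenitors, differed by 2.54 ± 0.19 and 1.99 ± 0.19, from a mean of 3590 normalised counts in WT at D5 to 21600 at D11. Abhd4, a lipid hydrolase, differed by 2.60 ± 0.19 and 2.38 ± 0.18. The 17 and 16 of 30 called lie near the shares of all genes called (48% and 46%), and the list did not share a direction. Called lower were 22.8% of all genes in WT and 22% in MUT. The medians of all genes tested were 0.04 in WT and 0.02 in MUT.

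By interval, Btg2 (1.12 ± 0.17), the adenylate kinase Ak1 (0.80 ± 0.14) and the sugar reductase gene Dcxr (0.98 ± 0.26) led these targets from D5 to D7 in WT, and the same 3 genes in MUT (0.90 ± 0.17, 0.64 ± 0.13 and 1.12 ± 0.25). From D7 to D9, Btg2 (1.39 ± 0.17), the stress sensor Sesn2 (-2.07 ± 0.28) and Psrc1 (-0.64 ± 0.11) led in WT, and Sesn2 (-1.95 ± 0.33), Ei24 (0.70 ± 0.13) and Btg2 (0.96 ± 0.20) in MUT. From D9 to D11, Psrc1 (-1.38 ± 0.14), Sesn1 (2.41 ± 0.28) and Abhd4 (1.34 ± 0.23) led in WT, and Psrc1 (-0.97 ± 0.14), Abhd4 (1.41 ± 0.22) and the lipid transfer protein Pltp (1.09 ± 0.25) in MUT.

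Between genotypes, Btg2 was lower in MUT at D9 (-0.87 ± 0.21, adjusted p = 0.026) and D11 (-0.77 ± 0.20, adjusted p = 0.017), and Psrc1 was higher on both days (0.54 ± 0.13 and 0.64 ± 0.13). Sesn1 and Gadd45a, a growth arrest and damage response gene, were lower at D11 (-0.85 ± 0.25 and -0.52 ± 0.15). Genotype and gate cannot be told apart in these D11 values, and at D9 MUT p2 holds 1 library. At D5 and D7 none of the 30 was called (1 and 4 at an unadjusted p under 0.05, limma), nor for the gate (3) or the difference of differences (3). Between domains Pltp was higher in p2 than p1 (1.04 ± 0.17) and Gadd45a lower (-0.54 ± 0.12), and Psrc1 was lower in pM than p2 (-0.35 ± 0.10).

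Of 7 inhibitors of cyclin-dependent kinases listed, Cdkn1a included, Cdkn1a was the only one called lower in WT at D11 than at D5, and 4 were higher (48% of all genes were called). Cdkn1c, which encodes p57, rose by 3.25 ± 0.35, from a mean of 713 normalised counts to 11900, Cdkn2d by 1.24 ± 0.15, Cdkn2c by 0.91 ± 0.25 and Cdkn2b by 1.11 ± 0.42. Cdkn1b and Cdkn2a were at 0.65 ± 0.31 (adjusted p = 0.077) and 0.29 ± 0.55 (adjusted p = 0.69). Libraries differed widely, since the 7 inhibitors summed to 6850, 12200 and 54700 (lowest, median and highest) in WT at D11. Cdkn1c was lower in MUT than WT at D5 (-2.42 ± 0.31), D7 (-1.81 ± 0.30) and D11 (-1.58 ± 0.37). At D11, where the gates differ too, this is the opposite sign to Cdkn1a.

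In the BCL2 family, which governs the mitochondrial step of apoptosis, 6 of 15 genes were lower and 1 higher in WT at D11 than at D5, Bbc3 and Bax included in the 15. The 7 of 15 called lie near the 48% of all genes called, while 22.8% of all genes were called lower, against 6 of 15 here. The BH3-only genes Bid (-1.19 ± 0.13), Bcl2l11 (-1.20 ± 0.18), Pmaip1 (-3.08 ± 0.59) and Hrk (-2.08 ± 0.62) and the effector-like Bok (-0.92 ± 0.19) were lower with Bbc3. Bad, another BH3-only gene, was higher (1.13 ± 0.31). Pmaip1, also counted among the 30 targets, and Hrk are low, with means of 170 and 78 normalised counts at D5 and 19.2 and 30.4 at D11 in WT. The family had no call between genotypes on any day (2 to 5 of 15 at an unadjusted p under 0.05, limma) nor for the gate (2).

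Bax followed the total of its library. At D7 in WT it stood at 17790, 20930 and 22170 in the 3 libraries of high total and at 6099 to 8653 in the other 6, with no overlap. At D9 NFIAn in WT the high libraries ran from 14030 to 19500 and the others from 8550 to 9393. Within the 13 groups that hold both kinds of library, Bax was higher in those of high total in 13, by a median of 1.07 on the log2 scale (0.58 to 1.70). Mdm2 went the other way, higher in 2 of 13 groups with a median of -0.49, Phlda3 was higher in 12 of 13 with a median of 0.33, and Bbc3 was higher in 1 of 13 with a median of -0.21. Cdkn1a was higher in 6 of 13, with a median of -0.02. Across the 26 group means the correlation with the summed normalised counts was 0.96 for Bax, -0.67 for Mdm2 and 0.14 for Cdkn1a. These are descriptions over groups that share days and domains, and the total contains the genes correlated with it.

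**Figure D5:**
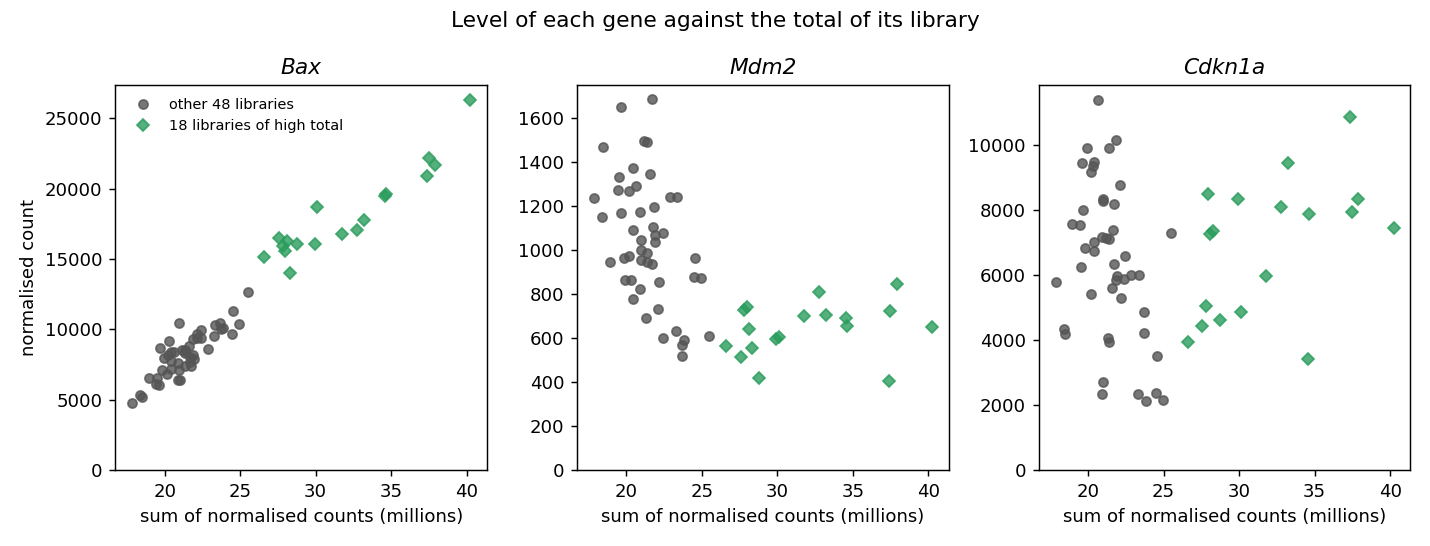
Normalised count of Bax, Mdm2 and Cdkn1a (y axes, linear, from 0) against the sum of normalised counts of the library in M (x axes), a point per library. The 18 libraries of high total hold the highest Bax values, all at or above 14030, while Cdkn1a shows no such split.

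At D11, outside those 18 libraries, replicate 2 had more Bax than replicate 3 in 6 of 6 genotype and domain pairs, and less Mdm2 in 6 of 6, with 873.7 against 876 in WT p1 as the closest pair and 517.4 against 1151 in MUT p2 as the widest. Replicate 2 also had the higher ribosomal share in each pair. Values of Bax, Mdm2 and Phlda3 thus move with the library, and the part of this in their differences between days was not tested, apart from the fits without the 18 libraries given above.

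The members did not form a single pattern over the 26 group means. The closest pair was Eda2r and Zmat3 (Pearson r 0.92), followed by Aen and Phlda3 (0.81) and Ccng1 and Eda2r (0.77). Trp53inp1 ran against most of them, at -0.58 with Bbc3 and -0.57 with Cdkn1a, and Bax lay near 0 with Ccng1 (0.09) and Bbc3 (-0.03). Within groups, over the deviations of 65 libraries from their group mean, Cdkn1a and Ccng1 were at -0.08, Eda2r and Zmat3 at 0.38, Phlda3 and Bax at 0.71 and Mdm2 and Bax at -0.75.

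Some genes outside the list had higher median correlations with the 10 members than any member had with the other members (Ccng1, 0.66, was the highest of these). They are the top of 10309 genes ranked by this same measure, so their higher values do not test whether the members form a set. By this measure, among the highest of 10309 genes ranked were Rcc1 (0.75), Pola2 (0.73), Slc35g1 (0.73) and Rrm1 (0.73). Rcc1 is the exchange factor of Ran on chromatin, Pola2 a subunit of DNA polymerase alpha and Rrm1 the large subunit of ribonucleotide reductase. In WT their medians went from 4990 to 1710 for Rcc1, from 2940 to 988 for Pola2 and from 8040 to 3510 for Rrm1 between D5 and D11. Closest to Cdkn1a of 10318 genes were Tubb5, a beta-tubulin (0.93), Cdca4 (0.89) and the telomere protein gene Tinf2 (0.89). Tubb5 went from a median of 52300 at D5 to 30200 at D11 in WT, Cdca4 from 4900 to 2790 and Tinf2 from 1950 to 856. The closest other member, Eda2r, ranked at 214 (0.73) and Zmat3 at 321 (0.70), while Ccng1 ranked at 588 (0.64) and Mdm2 at 3548 (0.23).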

How the data were processed

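The deposited table holds signal values that are read counts divided by a DESeq2 size factor per library, aligned to mm10, both per the submitters' processing notes; versions are not given in the sources used here. Dividing by the value of 1 read recovered whole reads for 100% of values in every library (tolerance 0.01). None of the 55 replicate pairs was identical (lowest chi-squared per degree of freedom 25.64). limma 3.58.1 in R 4.3.3, with a variance trend, was fitted to log2(normalised count + 1) with 26 group means over 66 libraries and no replicate block. It tested 15714 genes with at least 10 in at least 2 libraries, two-sided, Benjamini-Hochberg adjusted over all of them; a call is an adjusted p under 0.05. Differences over domains are means of the differences within domains, and fold changes are on the log2(value + 1) scale. The members, lists and comparisons were chosen with earlier results of these data known. Besides the members, Trp53 and Mdm4, the text names up to 3 genes of smallest adjusted p per comparison among the other p53 targets and the p53 regulators, the kinase inhibitors and BCL2 family genes called in WT D11 minus D5, and the genes most like the members among those of mean 50 or more. 1 gene that the rule would name is not reported here. Genes named beyond this rule were chosen after their values were seen. Libraries were matched to samples by title. Alternatives were edgeR 4.0.16 and DESeq2 1.42.0 on recovered reads, TMM scaling, all genes without the filter, 8 in place of 1 as pseudocount, the compared groups alone, replicate numbers as a block, a correlation by genotype, day and number, each library left out and the 18 libraries of high total left out. The limma fit was tested on simulated data with changes set in genes of mean above 50. It recovered 68%, 60% and 58% of 2-fold changes for WT D7 minus D5, WT D11 minus D5 and MUT minus WT D11. Of 4-fold changes it recovered 97%, 95% and 94%, and 3.51%, 0.641% and 5.59% of calls were false. Libraries were simulated as independent, so spread shared between libraries was not covered. Positions and exon lengths are from GENCODE M21 (95.8% of symbols found). Python 3.11.15 and matplotlib 3.10.9 were used.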

Additional observations from a re-analysis of the deposited data

Results flagged for a closer look

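The Cdkn1a change from D5 to D11 differed between the genotypes, tested as a difference of differences in limma: it was 1.00 on the log2 scale (adjusted p = 0.00038), with -1.52 in WT and -0.52 in MUT. At D11 every MUT library was above every WT library, and MUT was NFIAn and WT NFIAp.

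Other results moved in opposite directions in the domains without overlap of libraries, and these differences were not tested. Each involves MUT D9 p2, which holds 1 library. Zmat3 at D9 was 0.38 and 0.32 higher in MUT than WT in p1 and pM on the log2 scale and -0.47 in p2, where the MUT library stood at 357.6 normalised counts and the WT libraries at 466.3 to 560.6, a span of 0.85 between domains. Bbc3 in MUT differed between D7 and D9 by 0.61 in p2 (1345 at D9 against 840.1 to 911.2) and by -0.33 in pM (523.8 and 633 against 672.6 to 754.6), a span of 0.94. Zmat3 in MUT differed between D9 and D11 by 0.50 in p2 (443.3 and 573.9 at D11) and by -0.30 in p1 (453.6 and 588.3 at D11 against 619.7 and 650.9), a span of 0.80. None of these domain values passed in limma, and their adjusted p was 0.60 or more.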

How the results depend on the processing

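The 37 member calls of the 16 comparisons were recomputed under 874 combinations of call and alternative, left-out libraries included: 759 stayed past the threshold, 115 did not, and 0 changed sign. 19 of the 37 calls were kept under every alternative and left-out library. The number of members called (WT D7 minus D5: 1) was 0 with the compared groups alone, with the correlation and without the 18 libraries of high total, and 2 with replicate numbers as a block. For WT D9 minus D7 (5) it was 3, 2 and 2 with the compared groups alone, the correlation and without the 18, and for WT D11 minus D9 (3) it was 1 without the 18. The gate (0) gave 1 without a filter, 1 with DESeq2, 1 with the replicate block, 2 with the block within each day and 2 with the correlation (Cdkn1a and in the last pair Eda2r), and p2 minus p1 (0) gave 1 with DESeq2, the block within each day and the correlation. With the block within each day MUT minus WT gave 3 at D7 (Ccng1, Eda2r and Bax) and 1 at D9 (Phlda3), against 0 in each, and at D11 (2) it was 1 with the compared groups alone and with the correlation. MUT D7 minus D5 (2) gave 1 without a filter and with the correlation, 4 with edgeR, and 5 with DESeq2 and with the replicate block. MUT D9 minus D7 (3) gave 5 with DESeq2, 1 with the compared groups alone and 0 with the correlation and without the 18. MUT D11 minus D9 (4) gave 0 with the compared groups alone and without the 18, and 1 with the correlation. MUT D11 minus D5 (8) gave 6 to 8 over these settings. The cause was not tested. Leaving out 1 library at a time, the counts ran from 0 to 2 (WT D7 minus D5), 3 to 5 (WT D9 minus D7), 3 to 3 (WT D11 minus D9), 7 to 9 (WT D11 minus D5), 0 to 1 (gate, and p2 minus p1), 0 to 0 (pM minus p2, and MUT minus WT at D5, D7 and D9), 1 to 3 (MUT minus WT at D11), 1 to 5 (MUT D7 minus D5), 1 to 4 (MUT D9 minus D7), 2 to 5 (MUT D11 minus D9), 7 to 8 (MUT D11 minus D5) and 1 to 1 (the difference of differences). Replicate numbers were not used as a pairing in the main fit. Deviations of libraries that share a day and number had a median correlation of 0.165 (163 pairs, lowest -0.00375). For the same day and another number it was -0.0994 (290 pairs). The estimated correlation by genotype, day and number was 0.375. Libraries that share these labels thus share part of their spread, which the p-values of the main fit do not account for. The block within each day could not be fitted for comparisons between days. For all genes, edgeR on recovered reads called 7385 and limma 7542 for WT D11 minus D5. For MUT minus WT at D11, where limma called 283 higher and 367 lower, edgeR called 263 and 237, DESeq2 431 and 396, the fit of the compared groups alone 27 and 102, that with the correlation 32 and 75, that without the 18 libraries 649 and 880, and that with the block within each day 1312 and 1868. The number of libraries, 1 to 3 per group, limits the precision, and the shallowest library has 8.738 M reads.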
